A study of Arabidopsis thaliana with 8 samples.

Results

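Transcript levels under cycloheximide alone were compared between Arabidopsis protoplasts, plant cells stripped of their walls, that carried VND7XVE and protoplasts that carried SND1XVE. SND1 and VND7 are NAC transcription factors known to start the building of secondary walls, SND1 in fibres and VND7 in water-conducting vessels, and the XVE forms act when estradiol is given. The comparison used the 2 VND7XVE control arrays and the 2 SND1XVE control arrays, 4 of the 8 arrays of the study. Control cells of both genotypes received cycloheximide, which blocks protein synthesis, and no estradiol. The other 4 arrays, 2 per genotype, came from cells given estradiol together with cycloheximide. The study set controls against estradiol to find direct targets of each factor, so that differences between the controls are the starting levels from which those responses were measured.

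Every control sample carried a transgene and cycloheximide, and no group lacked either. The labels give the cells as protoplasts, without the tissue, the age of the plants or the way the constructs were delivered. They do not tell whether the 2 samples of a group were grown apart, and the p-values therefore rest on a spread that may be technical only. Genotype and cell preparation cannot be told apart. In RNA from many cells, a change in the share of a cell type and a change in RNA per cell cannot be told apart either.

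Cells without walls, kept in medium, are known to express wound, defence and stress genes. Heat shock proteins are chaperones that keep damaged or unfolded proteins soluble. Chitinases and defensins are secreted proteins that act on microbes, and WRKY factors switch defence genes. Genes of the plastid genome encode core subunits of the photosynthetic complexes and parts of the plastid's own machinery for transcription and translation.

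The array held 22746 probe sets besides its control features, and 14768 of them passed a filter on low signal, which asked for 2 or more of the 8 arrays above that array's 40th percentile, and were tested. Differences are given as VND7XVE minus SND1XVE on the log2(signal + 16) scale with the moderated standard error, and a call is an adjusted p under 0.05 in limma. By this rule 4067 probe sets were called, 27.5% of those tested. Of these, 2026 (13.7%) were higher in VND7XVE and 2041 (13.8%) lower, and the median difference over all tested probe sets was -0.0007. At least 2-fold differences among the calls numbered 311 higher (2.11%) and 454 lower (3.07%), and at least 4-fold differences 23 and 56. The called total was 2601 without VND7XVE control replicate 1 and 2571 without VND7XVE control replicate 2. Replicates correlated at 0.982 (SND1XVE) and 0.985 (VND7XVE) over log2 signals, and control arrays of different genotypes at 0.957 to 0.959. Median signals of the 4 arrays lay between 99.0 and 102.0 intensity units. The ratio of 3' to 5' signal of actin was 2.80 and 2.87 in SND1XVE controls and 3.72 and 4.16 in VND7XVE controls, and that of GAPDH 1.08 and 0.985 against 0.982 and 0.946. The part of these ratios in the differences was not tested.

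**Figure D1:**
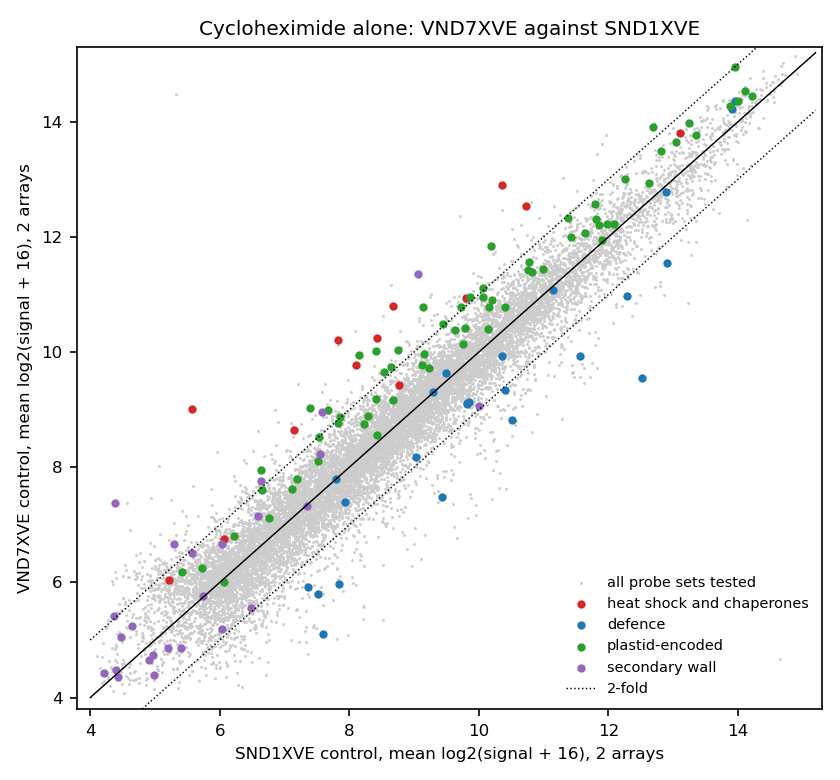
Mean log2(signal + 16) of the 2 VND7XVE control arrays (vertical axis) against the 2 SND1XVE control arrays (horizontal axis) for the 14768 tested probe sets, with 4 gene lists in colour. The solid line marks equal signal and the dotted lines a 2-fold difference, and heat shock genes lie above the solid line and most defence genes below it.

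The largest difference in each direction lay in probe sets that the tables used here give no gene. Probe set 260173_at read 11.7 and 41.6 in SND1XVE controls and 23963 and 22105 in VND7XVE controls, a difference of 9.17 ± 0.22. Probe set 261703_at read 25130 and 26356 in SND1XVE controls and 2.8 and 18.5 in VND7XVE controls, a difference of -9.98 ± 0.21. Each was thus near the array's floor in the controls of one genotype and among the brightest signals in the other, and the estradiol arrays gave 7.44 and -10.20. Probe set 261703_at passed the filter only through the SND1XVE arrays, where it was high. The tables give the names SND1 and VND7 to no probe set, so the labels were not checked against the transgenes here. Of the 4067 calls, 2115 named 1 gene, 1853 none and 99 several.

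Most heat shock proteins and chaperones on the list were higher in VND7XVE. Of 14 probe sets on the list 13 were tested, 11 were called higher in VND7XVE by limma, against 13.7% higher over all tested probe sets. By limma 0 were called lower, and 0 were lower at an unadjusted p under 0.05. The median difference of the 13 was 1.68, and the 2 without a call, ATHSP22.0 (0.82) and AT4G21870 (0.70), were positive as well. ATJ1, a chaperone of the J-domain family outside the list, named after its values were seen, was called lower. It read 866.4 and 843.4 in SND1XVE controls and 502.0 and 477.9 in VND7XVE controls (-0.78 ± 0.12). Other chaperones outside the list were not surveyed, in either direction. The summed signal of the list was 13704 and 15538 on the SND1XVE control arrays and 34611 and 38787 on the VND7XVE control arrays.

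Among the small heat shock proteins, AT1G52560 read 27.9 and 35.0 in SND1XVE controls and 506.1 and 492.7 in VND7XVE controls. With the pseudocount of 16 it had the largest difference of any named gene that was higher in VND7XVE, 3.45 ± 0.21 (limma adjusted p = 8.91e-09). AT1G52560 would not have passed the filter on its SND1XVE arrays alone. With a pseudocount of 1 the dim gene AT1G70500 came before it, at 4.77 against 3.96. AT1G53540 read 1213 and 1384 against 7847 and 7488, a difference of 2.55 ± 0.10 (limma adjusted p = 1.80e-10). The control arrays of the genotypes did not overlap for either gene, as for 30.9% of all tested probe sets in this direction. Both genes are among the largest calls, and the rule that named those required such separation. AT2G29500 read 1536 and 1841 against 5895 and 5924, which gave 1.80 ± 0.11. AT5G37670 (1.68) and AT5G51440 (1.13), further small heat shock proteins, were called in the same direction.

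Co-chaperones differed in the same direction. Hop3, which hands client proteins from HSP70 to HSP90, read 406.2 and 382.8 in SND1XVE controls and 1702 and 1818 in VND7XVE controls (2.11 ± 0.12, limma adjusted p = 3.16e-09). AT5G48570, the FK506-binding co-chaperone ROF2, read 181.4 and 242.6 against 1087 and 1246 (2.38 ± 0.15). The groups were again separate, which the naming rule required of both genes. HSA32, needed to keep acquired heat tolerance, differed by 1.50, and the HSP70 genes AT3G09440 and Hsp70-2 by 0.70 and 0.66, all of them called. On the estradiol arrays, which the control comparison does not use, the list's median was 1.46, with all 13 positive. There 11 were called higher, against 14.1% of all tested probe sets. By limma, a change of the genotype difference with estradiol was called for 0 of the 13, with 2 at an unadjusted p under 0.05, and for 3.06% of all tested probe sets.

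**Figure D2:**
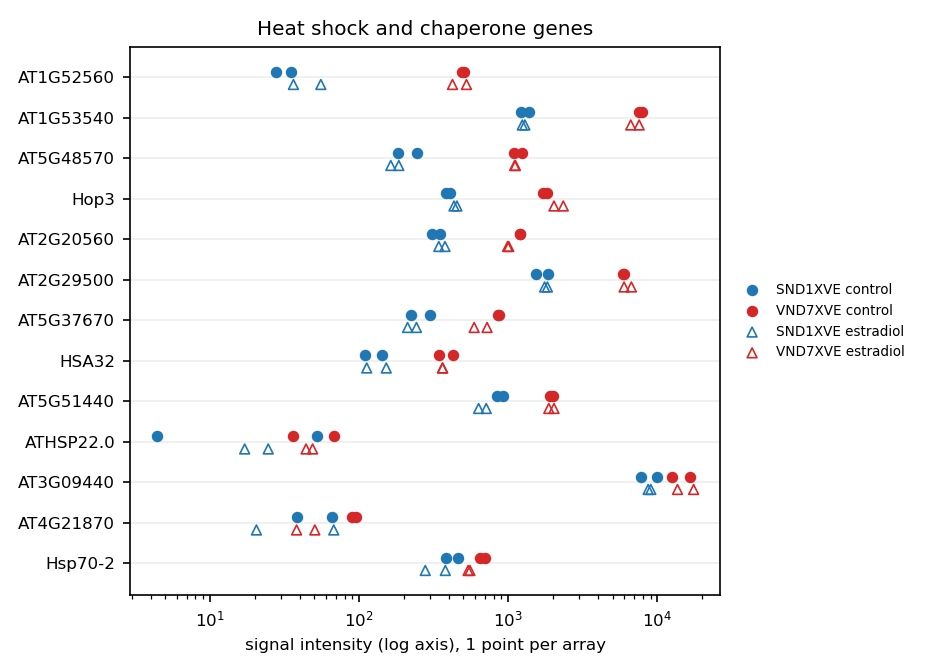
Signal intensity (log axis) of the 13 tested heat shock and chaperone genes, 1 point per array, with filled circles for controls and open triangles for estradiol, and genes ordered by the control difference. For every gene except ATHSP22.0 the 2 VND7XVE control arrays lie above the 2 SND1XVE control arrays.

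A list of genes induced by low oxygen in many cell types, drawn up after the largest differences had been seen, showed a mixed pattern. Of 18 probe sets 12 were tested, with 6 called higher and 1 lower, against 13.7% and 13.8% of all tested probe sets, a median of 0.42, and 4 and 0 without the filter on low signal. AT3G10020 read 586.5 and 607.9 in SND1XVE controls and 1999 and 2107 in VND7XVE controls (1.75 ± 0.12, limma adjusted p = 1.90e-08). AT3G03270 read 100.2 and 99.1 against 494.5 and 488.2 (2.13 ± 0.15). Both were separate between genotypes, which the naming rule required of them, and so was AT4G27450 (1.49). Members without a call included the bright AT5G27760 (-0.09) and AT4G24110 (-0.09). The calls of AT1G19530 (1.45), AT1G33055 (0.84) and AT3G27220 (-0.76) were lost when 1 of the control arrays was left out. AT1G19530 passed the filter only through the VND7XVE arrays, where it was high.

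Defence genes were lower in VND7XVE, that is, higher in SND1XVE. Of 28 probe sets on the list 24 were tested, 16 were called lower against 13.8% of all tested, and 2 higher, with a median of -0.78. The largest group was the chitinases, enzymes that cut the chitin of fungal walls. All 8 tested chitinase genes were called lower, with a median of -1.49 and a range from -2.97 to -0.70. The summed signal of the defence list was 72293 and 74041 on the SND1XVE control arrays and 61344 and 63078 on the VND7XVE control arrays.

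The chitinase AT4G01700 read 5893 and 5820 in SND1XVE controls and 676.7 and 797.3 in VND7XVE controls, a difference of -2.97 ± 0.11 (limma adjusted p = 2.90e-11). ChiC read 2924 and 3080 against 883.6 and 1037 (-1.63), and AT1G02360 read 7478 and 7815 against 2902 and 3085 (-1.35). No control array of one genotype reached into the range of the other for these genes, a separation that 31.2% of all tested probe sets showed in this direction. For AT4G01700 the naming rule required it. CHI, a further chitinase on the list, differed by -1.31, AT2G43610 by -1.71 and AT2G43590 by -1.69. AT2G43610 would not have passed the filter on its VND7XVE arrays alone.

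The defensin PDF1.2, a textbook marker of jasmonate and ethylene defence signalling, read 173.0 and 180.0 in SND1XVE controls and 30.8 and 9.3 in VND7XVE controls (-2.48 ± 0.32, limma adjusted p = 2.89e-05). PDF1.2 passed the filter only through the SND1XVE arrays, where it was high. Its close relative PDF1.2b read 192.8 and 235.3 against 44.5 and 48.5 (-1.87 ± 0.35), and would not have passed on its VND7XVE arrays alone. The signals of such similar genes may not be separate, since a probe set can bind transcripts of a near-identical copy. The jasmonate list itself had 1 tested member, JRG21, which read 16256 and 18076 against 16882 and 17060 and was not called (-0.01). In the ethylene list neither EIN3 (-0.02), a master regulator of ethylene responses, nor RTE1 (-0.22) was called.

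WRKY factors were divided. Of 7 tested, 3 were called lower, 1 higher and 3 in neither direction, with a median of -0.11. Over all tested probe sets 13.8% were called lower and 13.7% higher. WRKY53, a regulator of senescence and defence, read 691.3 and 657.3 in SND1XVE controls and 135.0 and 197.6 in VND7XVE controls (-1.94 ± 0.18, limma adjusted p = 8.20e-07). WRKY42 (-1.44) and WRKY47 (-1.06) were also lower, while the bright WRKY6 was slightly higher (0.31), a call lost without the filter on low signal, and WRKY22 was not called (-0.11). Among immune receptors and their partners, EFR, the receptor of bacterial elongation factor Tu, was lower (-0.72) and BIK1, a kinase that acts just after such receptors, was higher (0.41). BIK1 read 16185 and 15529 against 21602 and 20676. SAG101, a partner of the immune regulator EDS1, was not called (0.14).

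**Figure D3:**
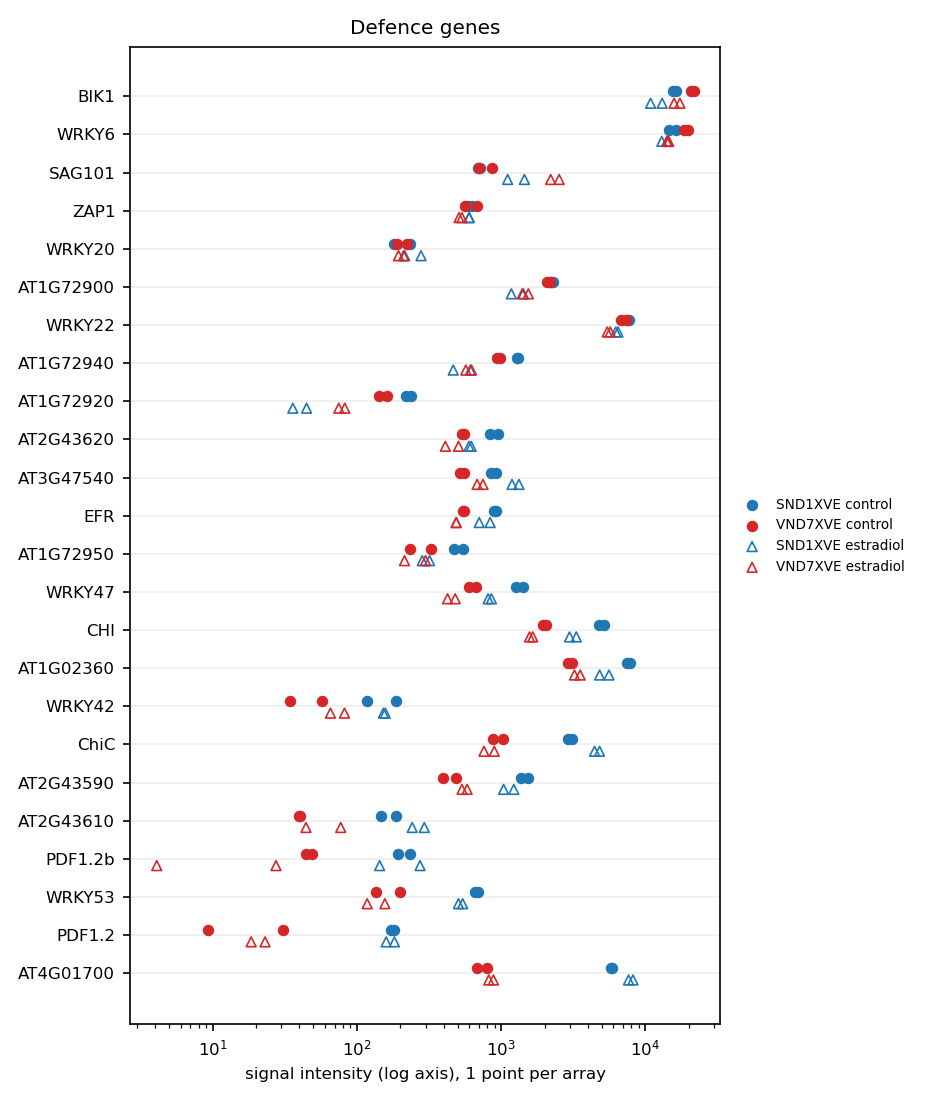
Signal intensity (log axis) of the 24 tested defence genes, 1 point per array, with filled circles for controls and open triangles for estradiol, and genes ordered by the control difference. The lower rows, led by AT4G01700, WRKY53 and the defensins, have both SND1XVE controls to the right of both VND7XVE controls.

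Receptor kinases of the family with leucine-rich repeats and a malectin-like domain, a list added after the largest differences had been seen, differed among themselves. Of 33 probe sets only 10 passed the filter, and of these 5 were called lower and 1 higher, against 13.8% and 13.7% of all tested. The median difference over all 33 was -0.15. AT1G51860 passed the filter only through the SND1XVE arrays, where it was high. AT5G59680 read 979.5 and 646.0 in SND1XVE controls and 101.8 and 85.4 in VND7XVE controls (-2.89 ± 0.19). AT1G51850 read 3796 and 3459 against 834.4 and 830.7 (-2.10 ± 0.13), and AT1G51860 117.5 and 66.1 against 5.0 and 5.1 (-2.31 ± 0.45). The genotypes were separate for all of these, which the naming rule required of AT5G59680. AT1G51805 went the other way (0.49), and AT1G51820, with signals of 1181 to 1432, was not called (-0.02). These genes are close relatives, and cross-binding between them was not tested.

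Peroxidases and lignin enzymes divided by gene. Of 10 tested members 6 were lower in VND7XVE and 3 higher, or 5 and 1 without the filter, against 13.8% lower and 13.7% higher over all tested probe sets. The summed signal of the list was 46588 and 47485 in SND1XVE controls and 23014 and 24030 in VND7XVE controls. Class III peroxidases are secreted enzymes that can cross-link wall polymers and also act in defence. PRX52 read 18851 and 17316 in SND1XVE controls and 5262 and 4773 in VND7XVE controls (-1.85 ± 0.10, limma adjusted p = 1.84e-09). Prx37 read 1200 and 1143 against 245.3 and 219.0 (-2.26 ± 0.14), and AT5G64120 (peroxidase PRX71) 9776 and 10055 against 3328 and 3201 (-1.60 ± 0.11). All these signals were separate between the genotypes. CYP84A4, a cytochrome P450 related to an enzyme of lignin synthesis, was lower too (-1.51). Lignin enzymes with smaller differences were CCOAMT (-0.50) and CCR2 (-0.27), both lower, and HCT (0.28), which was higher. Without the filter the call of HCT was lost, and so was that of either CCOAMT or CCR2. AT5G66390 (peroxidase PRX72), known for its part in lignification, read 17.6 and 29.8 in SND1XVE controls and 84.9 and 87.2 in VND7XVE controls (1.38 ± 0.15). Low signals also marked AT5G51890, whose call (0.77) ended when SND1XVE control replicate 1 or either VND7XVE control array was left out. AT5G51890 passed the filter only through the VND7XVE arrays, where it was high.

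Few auxin genes were measurable, and 2 of 7 tested members were called, both lower in VND7XVE. This share is near the 27.5% called in either direction over all tested probe sets. The list held 19 probe sets, so that 12 did not pass the filter. Of 24 auxin loci entered by code, the annotation used here named only 6. UGT84B1, which couples glucose to the auxin indole-3-acetic acid, read 211.3 and 265.3 in SND1XVE controls and 38.8 and 5.1 in VND7XVE controls (-2.89 ± 0.37, limma adjusted p = 2.64e-05). It passed the filter only through the SND1XVE arrays, where it was high. Without the filter 2 members of the list were called lower as well. GH3.3, which couples amino acids to auxin, read 9228 and 6392 against 2747 and 3070 (-1.40 ± 0.15, limma adjusted p = 4.09e-06). Both are auxin-conjugating enzymes, and for both the genotypes were separate, which the naming rule required of UGT84B1. IAGLU, an indole-3-acetate glucosyltransferase outside the list, named after its values were seen, was called in the other direction, at 4808 and 4213 against 5927 and 7113 (0.53 ± 0.11). WES1, another enzyme of the GH3 family, read 211.1 and 229.5 against 228.9 and 237.6 and was not called (0.08). IAA18 (0.01) and IAA30 (-0.25), repressors of auxin signalling, and YUC2 (0.53), an enzyme of auxin synthesis, were not called. Of 71 SAUR genes entered, which give short auxin-induced transcripts, the annotation used here named only 3, and these did not pass the filter.

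Plastid-encoded genes were higher in VND7XVE across almost the whole genome of the organelle. Of 69 probe sets 67 were tested and 52 were called higher by limma, against 13.7% of all tested, with a median of 0.65 and 66 positive differences. By limma 0 were called lower, and 0 were lower at an unadjusted p under 0.05. The other 15 had no call. Without the filter on low signal 45 were called, without VND7XVE control replicate 2 38, and without the limma trend 37. The summed signal of the list was 194259 and 200411 on the SND1XVE control arrays and 297842 and 297091 on the VND7XVE control arrays.

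By role, calls were made for 14 of 15 genes of photosystem II, the complex that splits water, with a median of 0.89. All 6 genes of the cytochrome b6f complex, which links the photosystems, were called (median 0.81), as were 4 of 5 of photosystem I (0.43) and 4 of 6 of the plastid ATP synthase (0.51). In the NADH dehydrogenase-like complex, which returns electrons to the chain, 8 of 9 were called (0.67). Outside photosynthesis, 11 of 14 plastid ribosomal protein genes (0.78) and 2 of 4 subunits of the plastid's own RNA polymerase (0.69) were called.

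The plastid gene with the largest difference was rpl33, a ribosomal protein, which read 259.6 and 277.1 in SND1XVE controls and 901.9 and 1046 in VND7XVE controls (1.80 ± 0.14, limma adjusted p = 1.32e-07). The splicing factor gene matK read 1114 and 1181 against 3562 and 3792 (1.67 ± 0.18), and psbT, a small photosystem II subunit, 147.2 and 157.5 against 500.0 and 511.6 (1.63 ± 0.17). The groups did not overlap for these genes, which the naming rule required of rpl33. The reaction centre gene psbA, with high signals, read 7712 and 5654 against 15656 and 14980 (1.21). Large signals with little difference were those of atpB (0.24) and ccsA (0.14), not called, and rbcL, the large subunit of Rubisco, was called at 0.49. For psbB the SND1XVE controls themselves were far apart, at 338.9 and 886.7, against 1801 and 1699 in VND7XVE (1.64 ± 0.29).

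**Figure D4:**
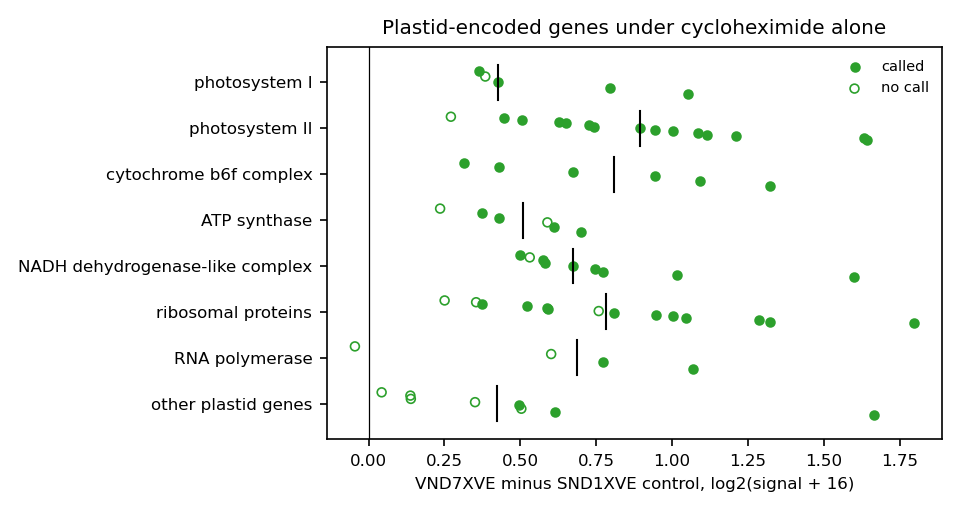
Difference of VND7XVE minus SND1XVE controls on the log2(signal + 16) scale for the 67 tested plastid-encoded genes, grouped by role, with filled points for calls, open points for none and a vertical bar at each group's median. Every point except that of rpoB lies to the right of 0.

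Nuclear genes of photosynthesis showed smaller differences in the same direction. Of 12 tested, limma called 7 higher, against 13.7% of all tested, and 0 lower, and at an unadjusted p under 0.05 these were 9 and 0. Their median was 0.51, and the summed signal was 12709 and 12991 in SND1XVE controls and 19234 and 19284 in VND7XVE controls. LHCB4.1, an antenna protein of photosystem II, read 2664 and 2713 against 5600 and 5474 (1.04 ± 0.10, limma adjusted p = 1.04e-06). ATPC1, the gamma subunit of the plastid ATP synthase, differed by 0.68 and PSBW by 0.65. RCA, the activase of Rubisco, read 2490 and 2192 against 2763 and 2762 and was not called (0.24). Leaving out VND7XVE control replicate 2 ended the calls of PRK, SBPASE and PSAE-1. Mitochondrion-encoded genes did not share the plastid pattern, with 1 called higher (nad4, 0.67), 1 lower (ccb452, -0.88) and 17 in neither direction, and a median of 0.08. Over all tested probe sets 13.7% were called higher and 13.8% lower. The calls of nad4 and ccb452 were both lost without VND7XVE control replicate 2. The part of the cells' photosynthetic make-up in the plastid difference was not tested.

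Few markers of particular cell types could be read. The guard cell regulator FMA read 118.3 and 94.7 in SND1XVE controls and 49.1 and 82.9 in VND7XVE controls and was not called (-0.60). The root genes PYK10 and EXPA7 did not pass the filter, with 64.3 and 40.7 against 14.5 and 41.2 for PYK10 and 3.5 and 39.6 against 7.0 and 18.1 for EXPA7. Markers of epidermis, phloem, xylem and meristem carry no name in the tables used here and were not analysed here.

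Secondary wall genes that estradiol raises in these lines already differed between the controls in part. Of 25 such genes, taken from the earlier results of the same arrays, 10 were called higher in VND7XVE and 3 lower, with a median of 0.22. Over all tested probe sets the shares were 13.7% and 13.8%. The genes were chosen on arrays that include these controls, so the counts are a description and are not read against those shares. Calls numbered 8 higher and 1 lower without the filter, and 6 higher in a fit of the 4 control arrays alone. AT1G70500, a polygalacturonase that would cut pectin, read 2.9 and 6.9 in SND1XVE controls and 177.1 and 128.5 in VND7XVE controls (3.01 ± 0.15, limma adjusted p = 1.84e-09). The serine carboxypeptidase-like gene scpl48 read 508.8 and 530.6 against 2503 and 2742 (2.30 ± 0.10), and scpl20 162.5 and 188.2 against 473.9 and 493.1 (1.39 ± 0.12). None of the VND7XVE control arrays overlapped the SND1XVE control arrays for these genes. For AT1G70500 and scpl48 the naming rule required this. AT1G35780 (1.12), scpl29 (0.68), AT5G38610 (0.94) and AT5G60530 (0.56) were called as well, the last not without VND7XVE control replicate 1. AT3G10590 (1.06) and AT5G60720 (0.63) lost their calls without 1 or another control array, and so did AT1G08340 (-0.84) and AT5G15050 (-0.93), which were lower. GSTU22, a glutathione transferase, was lower in VND7XVE controls, at 536.7 and 501.6 against 1087 and 934.4 (-0.94 ± 0.11).

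Genes of xylan synthesis were not called. IRX15 read 6.2 and 4.2 against 6.2 and 6.6 (0.08), and GUT2, the xylan synthase subunit IRX10, 131.7 and 163.2 against 152.9 and 136.5 (-0.02). TBL34, a relative of xylan acetyltransferases, was not called either (-0.59). In the wider cell wall list, 5 of 38 tested members were called higher and 4 lower, with a median of -0.03, and 5 and 2 without the filter. These counts are near the shares over all tested probe sets, 13.7% higher and 13.8% lower. The xyloglucan-modifying enzyme genes XTH29 (-1.29) and XTH18 (0.68) went in opposite directions.

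**Figure D5:**
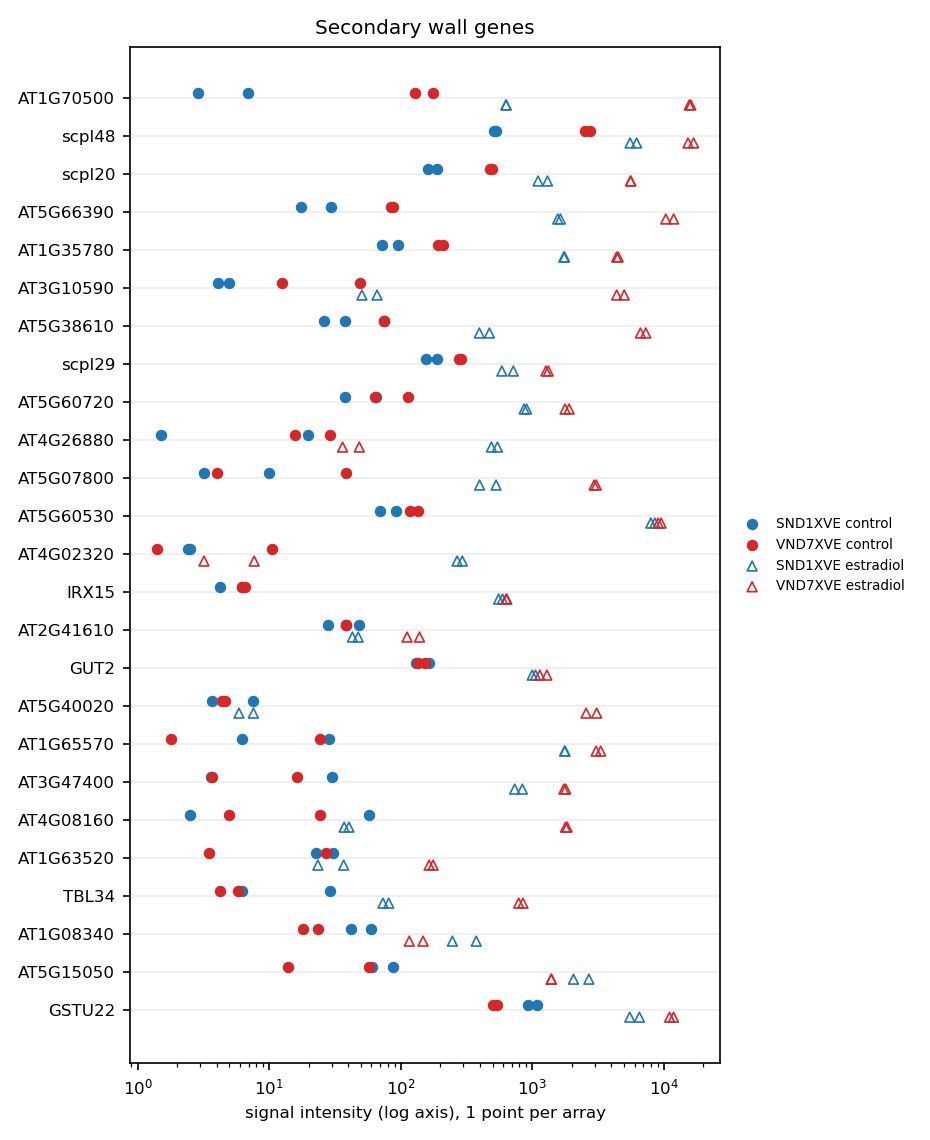
Signal intensity (log axis) of the 25 secondary wall genes that estradiol raised in these lines, 1 point per array, with filled circles for controls and open triangles for estradiol, and genes ordered by the control difference. In the upper rows, led by AT1G70500 and scpl48, the VND7XVE controls lie above the SND1XVE controls, and most genes reach higher signals with estradiol.

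Several histone genes were higher in VND7XVE. Of 8 tested members of the histone and cell cycle list, limma called 5 higher, against 13.7% of all tested, and 0 lower, with 5 and 1 at an unadjusted p under 0.05. HTB11, a histone H2B, read 463.1 and 589.8 in SND1XVE controls and 1409 and 1531 in VND7XVE controls (1.46 ± 0.14, limma adjusted p = 1.11e-06), and HTB4 differed by 1.00 and HTB1 by 0.78. The H2B genes are near copies of each other, and the probe sets may share signal. HTB2 (0.85) and the linker histone HON4 (0.38) lost their calls without SND1XVE control replicate 1. Over all 21 alternatives, HTB2 lost its call under 2 and HON4 under 4. HBT and CDC27a, subunits of the complex that marks mitotic proteins for degradation, were not called (-0.11 and 0.36). The linker histone gene HIS1-3 read 71.6 and 71.2 against 37.8 and 31.2, separate between genotypes but not called (-0.79 ± 0.33). Over all 12 probe sets of the list the median difference was 0.37.

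Genes of water stress and of detoxification were divided. In the abscisic acid list 2 of 12 tested members were higher and 3 lower, against 13.7% and 13.8% of all tested probe sets. LEA4-5, a late embryogenesis abundant protein that protects dehydrated cells, read 268.4 and 164.7 against 41.5 and 61.5 (-1.76 ± 0.25), while the dehydrin COR47 was higher (0.54). Among 14 tested genes of glutathione transfer and oxidative stress, 3 were higher and 4 lower, against the same 13.7% and 13.8%. GSTU25 read 4362 and 4475 against 1670 and 1979 (-1.27 ± 0.11), and GSTU18 217.9 and 178.3 against 401.9 and 519.8 (1.15 ± 0.16). Relatives in a single enzyme family thus stood on opposite sides, both with separate groups. TAPX, the ascorbate peroxidase of the thylakoid, was higher (0.88).

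Smaller lists gave few calls, to be set against 13.7% higher and 13.8% lower over all tested probe sets. SWEET17, a vacuolar sugar transporter, read 157.9 and 244.1 against 483.0 and 389.0 (1.08 ± 0.18) and was the 1 call among 7 tested SWEET genes. The glucosinolate transporter GTR1 read 13127 and 10573 against 19926 and 19488 (0.74 ± 0.11). CHIL, a helper of flavonoid synthesis, was called (1.07) from signals of at most 25.8. That call was lost under 8 alternatives, among them leaving out SND1XVE control replicate 1. GTR1 and CHIL were the 2 calls among 4 tested genes of flavonoids and glucosinolates. CHIL passed the filter only through the VND7XVE estradiol arrays. The zinc transporter ZIP9 was lower (-1.23) and lost its call under 3 alternatives, among them leaving out SND1XVE control replicate 2. ZIP9 passed the filter only through the SND1XVE arrays, where it was high. AT1G47400 from the same list was not called (0.76). In the cytochrome P450 list 1 of 9 was higher and 2 lower, with CYP71B22 at -0.74. CYP71B24, the higher one at 0.51, had overlapping arrays. Its call was lost under 13 of the 21 alternatives, among them the one without the filter. Neither clock gene, GI (-0.39) nor XCT (0.00), was called, but the SND1XVE controls of XCT were 185.0 and 540.9, and without one or the other its difference was -0.73 or 0.74, both called. Of 8 reference genes, commonly used because their levels are steady, 1 was called higher (AT5G46630, 0.39) and 2 lower (PEX4, -0.35, and AT4G34270, -0.37), with a median of -0.0008. Each of these 3 calls was lost when 1 control array was left out.

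Beyond the lists, AT3G27200 was among the largest differences of named genes higher in VND7XVE, with 34.5 and 6.2 in SND1XVE controls and 254.1 and 232.2 in VND7XVE controls (2.95 ± 0.26). The others of the 15 largest that belong to no list were AT1G71000 (2.28), AT1G54050 (2.24) and AT1G26800 (1.89). The tables give only their locus codes, and whether any of them is a chaperone was not checked here. Lower in VND7XVE, the largest difference of a named gene with the pseudocount of 16 was that of AT2G42060, at 340.3 and 365.9 against 11.7 and 44.5 (-3.17 ± 0.35, limma adjusted p = 6.37e-06), while UGT84B1 came first with a pseudocount of 1 (-3.93) and AT4G01700 with 64 (-2.89). It was followed outside the lists by AT2G18210 (-2.86), AT4G18540 (-2.80), AT2G36440 (-2.77), AT3G54520 (-2.69), AT5G19880 (-2.65), AT2G36690 (-2.65), AT1G51915 (-2.61), AT3G24510 (-2.59), AT5G64790 (-2.44) and AT1G14730 (-2.42). All these genes had separate control groups, which the naming rule required. Those lower in VND7XVE outside the lists also carry only locus codes here. Whether any of them is a peroxidase or a defence gene was not checked. AT2G42060 and AT3G24510 passed the filter only through the SND1XVE arrays, where they were high. AT2G18210 and AT5G19880 would not have passed on their VND7XVE arrays alone. For AT5G24710, the 1 of 88 genes with several tested probe sets whose calls were opposed, the sets gave -0.46 and 0.99, so that no direction is given for it.

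The genotype difference was also measured on the other arrays, in the cells given estradiol. The labels do not tell whether these cells came from the same preparations as the controls, so a difference between preparations could recur. There 2087 probe sets were called higher in VND7XVE (14.1%) and 2430 lower (16.5%). Of the 4067 control calls, 3790 (93.2%, exact 95% interval 92.4 to 93.9, for counting error only) had the same sign with estradiol, against 74.1% of all tested probe sets. The interval takes probe sets as independent and leaves out the spread between samples. With 1 array left out the share lay between 91.6% and 95.3%. Calls were selected for large differences relative to their error, so they are not like all tested probe sets. Calls in the same direction in both comparisons numbered 2633, which is 64.7% of the control calls and 58.3% of the estradiol calls, and 49 were called in opposite directions. The comparisons have no array in common but share each probe set's estimated variance. All 79 of the 4-fold differences had the same sign. A called change of the genotype difference with estradiol was found for 211 of the 4067, 5.19%, against 3.06% of all tested. Over all probe sets such changes numbered 452, or 232 without VND7XVE estradiol replicate 1 and 263 without VND7XVE estradiol replicate 2. Without VND7XVE estradiol replicate 1 the genotype calls on estradiol arrays fell from 4517 to 2998. By list, the estradiol medians were 1.46 for heat shock, -0.63 for defence, 0.64 for plastid-encoded genes and -0.32 for auxin genes. Secondary wall genes had a median of 1.20 there, and 14 of the 25 had a called change of the genotype difference. These genes were chosen for their response to estradiol on the same arrays, so that this count is a description and is not read against the share of all tested probe sets.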

How the data were processed

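RNA of protoplasts was labelled with biotin by a 1-cycle Affymetrix kit, per the labels' protocols, and each of the 8 arrays gave 1 value per probe set. The authors' deposited values are signal intensities on a linear scale, and GCOS is the tool in the submitters' processing notes. The sources used here do not give its version or algorithm. Detection calls did not enter. The 2% trimmed mean of every array was 500.0 or 500.1, so intensities were used as deposited, without further normalization. No sample column was left out of the 8.

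Probe sets were named from the platform's annotation table, and their symbols brought up to date with NCBI's TAIR10.1 gene table, used for names only. Of 22746 probe sets, 13513 named 1 gene, 503 several and 8730 were not listed. Of the 13513, 13436 matched the reference, and 11933 carry a locus code as symbol. Coordinates are left out because the array has no stated build.

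Deposited intensities were transformed to log2(signal + 16), which understates changes of dim genes. A model with 4 group means was fitted to 8 arrays with limma 3.58.1 in R 4.3.3 (lmFit, eBayes with an intensity trend, 4 residual degrees of freedom), two-sided, with p-values adjusted by Benjamini-Hochberg over 14768 probe sets and a threshold of 0.05. The procedure was tested on simulated data. Tables were made with Python 3.11.15, pandas 2.3.3, numpy 2.4.6, scipy 1.17.1 and matplotlib 3.10.9.

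Members and gene lists were chosen with earlier results of these data known, and lists were drawn up by locus code, symbol or synonym from background knowledge. The annotation named only part of the loci entered by code: 14 of 40 for heat shock, 16 of 45 for defence and 0 of 25 for jasmonate. Lists were trimmed on gene names alone, plastid genes were taken by the reference's plastid chromosome, and receptor kinases and low-oxygen genes were added after the largest differences were seen. The genes named are the 15 largest calls in each direction that name 1 gene and whose control arrays do not overlap, up to 6 called and 2 uncalled members per list, and all wall and reference genes. Further list members, and the probe sets without a gene, were named after their values were seen. Alternatives were other pseudocounts (1 and 64), scalings, filters, spread models, a replicate block, a threshold of 0.01, only probe sets naming 1 gene, and leaving out each array. The number of arrays limits the precision.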

Additional observations from a re-analysis of the deposited data

Results flagged for a closer look

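For 20 of the 158 genes named by the rule the difference between the genotypes itself changed with estradiol, by the limma interaction test at an adjusted p under 0.05. Over all tested probe sets 3.06% had such a call. Of the 20, 14 belong to the secondary wall list, which was chosen for its response to estradiol on these arrays. The count is therefore a description and is not read against that share. Values are the estradiol difference minus the control difference, VND7XVE minus SND1XVE, on the log2(signal + 16) scale. Among wall genes the difference grew for AT5G40020 (7.04), AT4G08160 (5.41), AT3G10590 (4.93), TBL34 (3.75), AT5G38610 (3.02), AT1G63520 (2.58), AT5G07800 (2.104), AT1G70500 (1.61), AT5G66390 (1.40) and scpl20 (0.82). It moved towards SND1XVE for AT4G02320 (-4.02), AT4G26880 (-3.80) and scpl48 (-0.85). Other genes with a larger difference under estradiol were CHIL (3.42), AT5G51890 (3.19), AT3G27200 (2.07) and SWEET17 (1.28). For GSTU22 the change was 1.87, and the difference turned from -0.94 in the controls to 0.93 with estradiol. Prx37 changed by 0.88 and the plastid gene matK by -1.001, each with a smaller difference under estradiol.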

How the results depend on the processing

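The called total of 4067 lay between 2571 and 4100 when 1 array was left out, with 1170 to 2077 higher and 1326 to 2024 lower in VND7XVE, and the lowest totals came without a VND7XVE control array. An adjusted p of 0.01 gave 2461 calls, 1210 higher and 1251 lower, and only probe sets naming 1 gene, which are fewer, 2056, 953 and 1103. At least 2-fold differences numbered 162 higher and 270 lower with a pseudocount of 64, 157 and 257 with probe sets naming 1 gene only, and 300 lower with a filter at the 60th percentile. Changes of the genotype difference with estradiol numbered 291 without a filter, 226 without the limma trend and 232 to 446 with 1 array left out, in place of 452. Genotype calls on the estradiol arrays numbered 2998 to 4796 in place of 4517, and the share of control calls with the same sign 91.6% to 95.3%; leaving out arrays for these counts was decided after seeing the data. Higher calls among wall genes numbered 6 with only the 4 control arrays fitted. The cause of these changes was not tested, apart from fewer arrays or probe sets where these were left out. A replicate block gave 4075 calls, 441 changes with estradiol and the same list counts. Numbers are not shown to pair the samples, since replicate deviations of the groups correlated at -0.0311 to 0.0239. Of 103 called named genes, 72 kept their call under all 21 alternatives, 5 under the 20 in which they were tested, since the filter at the 60th percentile left them out, and 26 lost it under at least 1. XCT, whose SND1XVE controls read 185.0 and 540.9, moved from 0.00 to -0.73 (limma adjusted p = 0.0109) without SND1XVE control replicate 1 and to 0.74 (0.0135) without replicate 2. Low signals near the array's floor, where log2 differences shrink, limit what could be tested.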
